A study of Rattus norvegicus with 3 samples.

Results

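The homeostatic microglia genes described here are 10 genes (Aif1, Csf1r, Cx3cr1, P2ry12, P2ry13, Tmem119, Sall1, Gpr34, Olfml3 and Spi1). They were taken from the table by gene symbol, as a set known from microglia. All 10 were found among the 18425 genes of the table. They were followed through 3 retinal RNA libraries from wild-type Sprague-Dawley rats. Each retina received 1 µl into the vitreous on postnatal day 1 (P1) and was harvested on P4. The Buffer library came from eyes given citrate buffer of pH 4.5, the Saline library from eyes given saline, and the STZ library from eyes given 10 µg of streptozotocin, a methylnitrosourea-bearing glucosamine that alkylates DNA. The stock of STZ was made in the same citrate buffer and then diluted. The number of retinas or animals behind each library is not given in the sources used here. With 1 library per condition there is no replicate check, no p-value was computed, and treatment cannot be told apart from other differences between the libraries. In the eye injections that the study describes, STZ went into the right eye and citrate buffer into the left eye of one animal. Whether the sequenced Buffer and STZ retinas were paired in this way is not given.

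Microglia are the resident macrophages of the retina and brain. They settle in the retina before birth, depend on signaling through the receptor Csf1r, and clear cells that die during development. In the healthy tissue they carry a set of surface receptors and regulators that sense neurons and nucleotides, and this set is called homeostatic because several of its genes are turned down in activated microglia. The receptors among the 10 genes are Csf1r, which binds the growth factors Csf1 and Il34, Cx3cr1, which binds the neuronal chemokine Cx3cl1, the ADP receptors P2ry12 and P2ry13, and Gpr34, a lysophosphatidylserine receptor. Spi1, which encodes PU.1, is the lineage factor of myeloid cells, and Sall1 is a zinc finger factor of microglial identity that other developing tissues also use. Aif1 encodes the calcium-binding protein IBA1, the usual stain for microglia. Tmem119 encodes a membrane protein used as a microglial marker. Olfml3 encodes a secreted olfactomedin-like protein that cells other than microglia also make.

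The 250 bases before the RefSeq start site (build GRCr8) were read for 3 genes, namely Csf1r, which was higher in STZ, Cx3cr1, which was higher in STZ, and Olfml3, which was not. They are shown because PU.1 is itself among the 10 genes and is known to bind purine-rich sites with a GGAA core. Capitals mark each match to GNGGAAG on either strand, and all sequences run 5′ to 3′ on the strand of the gene. The windows are chr18:56834129-56834378 on the plus strand for Csf1r, chr8:128677067-128677316 on the minus strand for Cx3cr1, and chr2:193935495-193935744 on the minus strand for Olfml3.
Csf1r: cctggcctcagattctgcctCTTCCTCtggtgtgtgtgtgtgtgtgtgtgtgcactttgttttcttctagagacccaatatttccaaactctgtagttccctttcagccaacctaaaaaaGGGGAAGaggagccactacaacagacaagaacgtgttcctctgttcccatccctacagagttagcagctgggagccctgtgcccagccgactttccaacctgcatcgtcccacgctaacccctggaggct
Cx3cr1: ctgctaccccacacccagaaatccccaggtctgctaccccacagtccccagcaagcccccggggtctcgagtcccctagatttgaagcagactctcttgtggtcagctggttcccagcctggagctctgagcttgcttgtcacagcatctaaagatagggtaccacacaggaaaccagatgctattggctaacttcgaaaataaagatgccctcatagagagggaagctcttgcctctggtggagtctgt
Olfml3: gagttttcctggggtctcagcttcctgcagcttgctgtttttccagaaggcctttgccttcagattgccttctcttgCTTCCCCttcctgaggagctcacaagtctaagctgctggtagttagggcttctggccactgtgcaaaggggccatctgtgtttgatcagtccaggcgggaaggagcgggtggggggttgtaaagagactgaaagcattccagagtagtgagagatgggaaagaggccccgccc

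GNGGAAG was found 2 times before Csf1r, starting 230 and 130 bases before the start site, 1 time before Olfml3, 173 bases before the start site, and 0 times before Cx3cr1. The same motif stood in 25.1% of 33469 promoter windows of this length. The shorter core GGAA, which GNGGAAG contains, had 7 matches before Csf1r, 3 before Cx3cr1 and 8 before Olfml3, and 93.2% of windows held at least 1. TATAAA was in none of these 3 windows and in 12.9% of all windows. Of the 10 genes, 5 had a window in the table. P2ry13 and Gpr34, which are the other two, held no GNGGAAG.

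The library totals, from estimated counts rounded to whole numbers, were 21992701 reads for Buffer, 21977846 for Saline and 22031241 for STZ. The counts of the 10 genes were whole numbers as deposited in every library, while 12.9% to 13.2% of all values per library were fractional. Markers of retinal cells were abundant, with 11780 to 13849 reads of Crx, a photoreceptor transcription factor, and 12271 to 12605 of Pax6, a factor of retinal progenitors and inner retinal neurons. Hemoglobin and other erythroid genes were uneven, at a CPM (reads scaled to 1000000 per library) of 62.9 in Buffer, at 88.4 in the Saline library and at only 46.6 in STZ.

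Of the 10 genes, 9 had more reads in the STZ library than in either control and 1, Olfml3, had fewer. By the fold rule of the study, (FPKM + 1)/(FPKM + 1) above 1.54 or below 0.65, 7 of the 10 were higher in STZ than in Buffer and 0 were lower, where 2.25% of all genes were higher and 1.04% were lower. FPKM counts fragments relative to transcript length and sequencing depth, so that levels of different genes can be compared. Against Saline the same rule also passed 7 of the 10 as higher and 0 as lower, where 2.04% and 1.75% of all genes passed. Both comparisons share the STZ library. The 7 genes were the same in both, namely Aif1, Csf1r, Cx3cr1, Gpr34, Sall1, Spi1 and Tmem119, and 1.39% of all genes were higher than both controls. The call of Sall1 against Saline depended on the scaling. Under TMM or median-of-ratios scaling its fold there was 1.53, and 6 genes passed. Between the controls 0 of the 10 passed in either direction, where 1.00% of all genes were higher and 0.429% were lower in Saline. Low-count genes rarely pass this rule, so the background was also taken over the 8111 genes within the range of the members' mean counts, 33.3 to 1120 reads. There 3.46% were higher and 1.42% lower in STZ than in Buffer, 3.09% higher and 2.39% lower than in Saline, and 1.26% higher and 0.567% lower in Saline than in Buffer. FPKM and CPM are relative to the whole library. In whole-retina RNA, more microglia, more of these transcripts per cell and less RNA from other cells cannot be told apart.

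**Figure D1:**
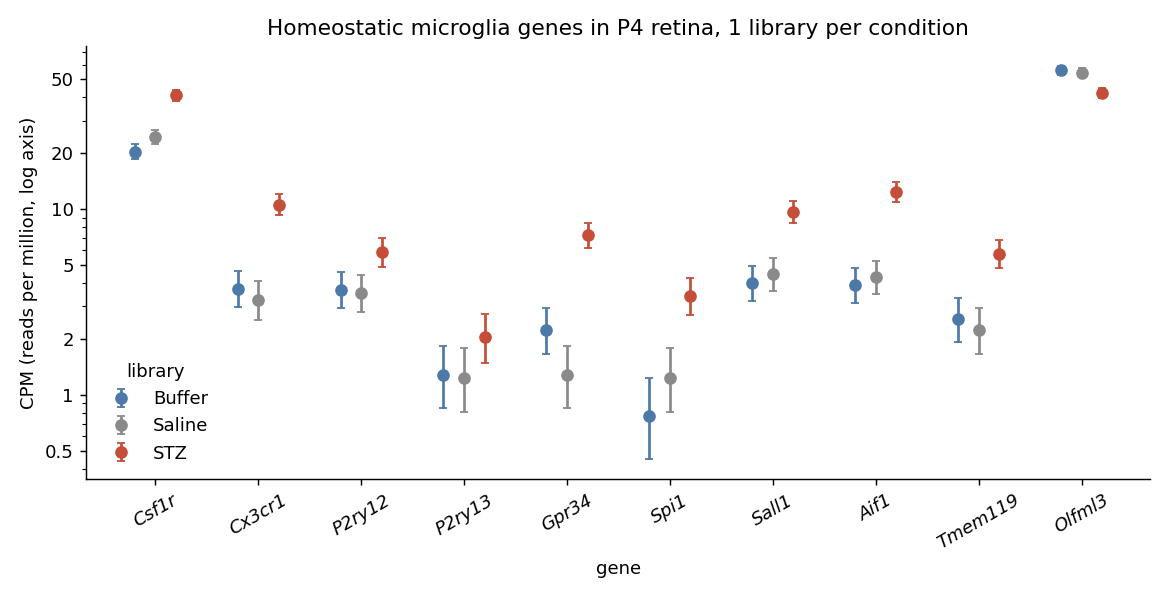
CPM of each gene (log axis) in the Buffer, Saline and STZ libraries, 1 library each, with exact 95% Poisson intervals that cover counting error only. For 9 genes the STZ point is the highest of the 3, and for Olfml3 it is the lowest.

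The spread of the 10 genes was wide, and their median hides Olfml3. The median log2 fold was 0.80 in STZ against Buffer, beside 0.02 over all genes and 0.05 over those in the members' count range. Against Saline it was 0.76, beside 0.03 in the same range. In Saline against Buffer it was -0.05, beside 0.03. A second measure was the count ratio. It divides the share of all reads that a gene took in one library by its share in the other, and its 95% interval (Clopper-Pearson, exact) covers counting error. Over the 9 genes without Olfml3 this ratio ran from 1.59 to 4.40 in STZ against Buffer, with a median of 2.40, and from 1.65 to 5.66 against Saline, with a median of 2.59. No molecular identifiers are named for these libraries, so reads need not be separate molecules, and these intervals compare libraries, not conditions.

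By the count ratio, 9 of the 10 genes were past 1.54 in STZ against Buffer and 0 were below 0.65, where 6.35% and 3.46% of the 14886 genes averaging 10 or more counts were. Against Saline the numbers were again 9 and 0, where 5.66% and 5.39% of genes were. Between the controls 1 gene, Spi1, was above and 1, Gpr34, was below, where 4.39% and 1.47% of genes were. The counting interval lay above 1 for 8 of the 10 genes and below 1 for 1 against Buffer, where it did so for 26.2% and 18.8% of genes. Against Saline these numbers were 9 and 1, where 26.9% and 23.5% of genes did so. Between the controls they were 1 and 1, where 15.9% and 12% did so. An interval that leaves out 1 was therefore common in these libraries, while a ratio past 1.54 was not.

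Among the receptors, Csf1r had 449 reads in Buffer, 540 in Saline, and 905 after STZ. The STZ library was the highest, and Saline lay above Buffer. The FPKM fold was 1.86 against Buffer and 1.58 against Saline, the latter close to the threshold. By reads, STZ was at 2.01 of the Buffer share (1.79 to 2.26) and at 1.67 of the Saline share (1.50 to 1.86). Csf1r was the only one of the 10 genes whose interval lay above 1 in Saline against Buffer, at 1.20 (1.06 to 1.37).

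Cx3cr1, the fractalkine receptor, had 82 reads in Buffer, 71 in Saline and 233 in STZ. Saline was at 0.866 of Buffer (0.622 to 1.21), which is within counting error, and STZ stood apart from both. Its FPKM fold was 2.42 against Buffer and 2.70 against Saline, and its count ratio was 2.84 (2.20 to 3.69) and 3.27 (2.50 to 4.33).

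Gpr34 had 49 reads in Buffer, 28 in Saline and 159 in STZ. Here the controls themselves differed, with Saline below Buffer at a ratio of 0.572 (0.346 to 0.928). The STZ ratio depended on the control more than for any other of the 10 genes, 3.24 against Buffer (2.34 to 4.56) and 5.66 against Saline (3.77 to 8.80). The FPKM folds were 2.10 and 2.54. The annotated span of Gpr34 overlaps that of Cask, a neuronal scaffold gene, whose estimated counts were 1199.57, 1246.03 and 1180.31 in Buffer, Saline and STZ, a ratio of 0.982 in STZ against Buffer (0.905 to 1.06).

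The ADP receptors P2ry12 and P2ry13 had the smallest count ratios against Buffer among the 9 higher genes. P2ry12 had 81 reads in Buffer, 78 in Saline, and 129 after STZ. The controls were alike within counting error, and STZ was higher than both. The count ratio was 1.59 against Buffer (1.19 to 2.13) and 1.65 against Saline (1.24 to 2.21), but the FPKM fold was 1.27 and 1.33, short of 1.54. P2ry13 had 28, 27 and 45 reads, a count ratio of 1.60 (0.979 to 2.67) against Buffer and 1.66 (1.01 to 2.79) against Saline. At this depth the P2ry13 difference from Buffer was within the counting error. Set against each other, their odds ratio was 0.991 in STZ against Buffer, with a wide interval of 0.549 to 1.77.

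Both ADP receptor genes overlap the annotated span of Med12l, a Mediator subunit gene. Whole spans were compared, and whether exons overlap was not checked. Only reads from stretches that both genes transcribe cannot be told apart without strand. Whether the counting used strand is not given in the sources used here. Med12l had 235.0 estimated counts for Buffer, 197.72 for Saline and 191.99 for STZ, a ratio of 0.816 in STZ against Buffer (0.670 to 0.991). Its Saline and STZ counts were close. The part of Med12l reads in the counts of either receptor was not tested.

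For P2ry13 the choice of unit decided the picture. Buffer gave it an FPKM of 0.81, Saline 0.69 and STZ 0.83, an FPKM ratio of 1.02 in STZ against Buffer, while the reads gave 1.60. The number of reads behind 1 FPKM unit was 34.6, 39.1 and 54.2 in the 3 libraries. For Aif1 the same number was 9.47, 9.52 and 9.48. In 5 of the 10 genes (Aif1, Csf1r, Cx3cr1, Olfml3 and Sall1) it was the same in all libraries within 2%, and in the other 5 the highest exceeded the lowest by a factor of 1.08 to 1.57. P2ry13 was the largest of these and P2ry12, at 28.0, 28.7 and 32.7, was also among them. What sets this number in the deposited values was not tested.

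**Figure D2:**
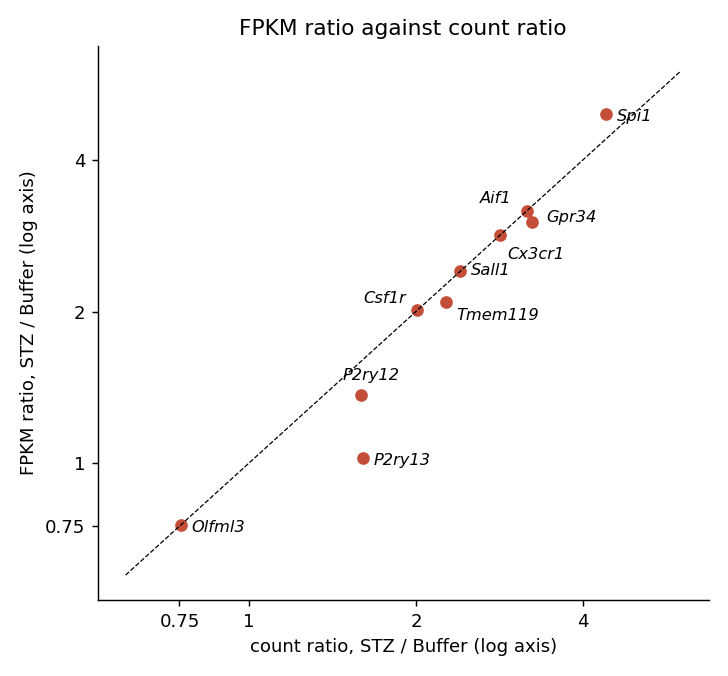
FPKM ratio (vertical, log axis) against count ratio (horizontal, log axis) in STZ against Buffer, 1 point per gene, with a dashed line where both are equal. Most genes lie on or near the line, and P2ry13 lies furthest below it, at an FPKM ratio of 1.02 and a count ratio of 1.60.

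Both transcription factors were higher in STZ. Spi1 had the fewest reads of the 10 genes in Buffer, with 17 there, 27 in Saline and 75 in STZ. STZ was above both, and the order of the controls was within counting error, at 1.59 (0.835 to 3.11). Its count ratio was 4.40 to Buffer (2.58 to 7.96) and 2.77 to Saline (1.76 to 4.48), and the FPKM fold was 2.44 and 1.93. The pseudocount of 1 bears on this fold, because Spi1 had an FPKM of 0.58 in Buffer. With a pseudocount of 0.1 its fold against Buffer was 4.35.

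Sall1 had 88 reads in Buffer, 98 in Saline, and 212 after STZ. The controls were close, and STZ was above both. The count ratio was 2.40 (1.87 to 3.12) against Buffer and 2.16 (1.69 to 2.77) against Saline. Its FPKM fold was 1.63 against Buffer and 1.5445 against Saline, the latter barely past 1.54. Its paralog Sall3, which the developing retina expresses, had 243, 293 and 324 reads and FPKM folds of 1.21 and 1.09. Spib, the closest relative of Spi1, had 5, 6 and 7 reads.

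Aif1 had 86 reads in Buffer, 95 in Saline and 273 in STZ, with FPKM of 9.08, 9.98 and 28.79. In STZ it became the highest of the 10 genes per length, at about the level of Olfml3 (FPKM 27.79), while in Buffer it had stood well below Olfml3 (36.77). The FPKM fold of Aif1 was 2.96 against Buffer and 2.71 against Saline, and the count ratio was 3.17 (2.48 to 4.09) and 2.87 (2.26 to 3.66). The controls were within counting error of each other, at 1.11 (0.817 to 1.50).

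Tmem119 had 56 reads in Buffer, 49 in Saline, and 127 after STZ. The controls were within counting error of each other, at 0.876 (0.584 to 1.31). The count ratio was 2.26 (1.64 to 3.16) against Buffer and 2.59 (1.85 to 3.67) against Saline, and the FPKM fold was 1.62 and 1.82. Unlike the ADP receptors, Tmem119 passed the threshold against both controls.

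Olfml3 went the other way. It had 1233 reads in Buffer, 1194 in Saline, and 932 after STZ. The controls were close, at 0.969 (0.894 to 1.05), and STZ was below both. The count ratio was 0.755 against Buffer (0.692 to 0.822) and 0.779 against Saline (0.714 to 0.849). The FPKM fold of 0.762 and 0.785 did not reach 0.65. Of the 10 pericyte and mural cell genes that were counted beside it, 3 were below 0.65 against Buffer and 0 were above 1.54, and 2 were below it against Saline. Rgs5, a pericyte regulator of G protein signaling, had 54, 44 and 22 reads, and Pdgfrb, the pericyte receptor for PDGF-B, had 203, 172 and 74. Not all mural genes were lower, and 4 of the 10 had a fold above 1 against Buffer. Myh11, a smooth muscle myosin gene with the most reads of the list and named after its values were seen, had 317, 230 and 406 reads, a count ratio of 1.28 to Buffer (1.10 to 1.49). Tagln, which encodes an actin-binding protein of smooth muscle, was at 15 reads in Buffer and at 31 in both others, with a fold of 1.49 to Buffer. The summed mural reads were 826, 730 and 658. Whether these cells contribute to the level of Olfml3 was not tested.

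**Figure D3:**
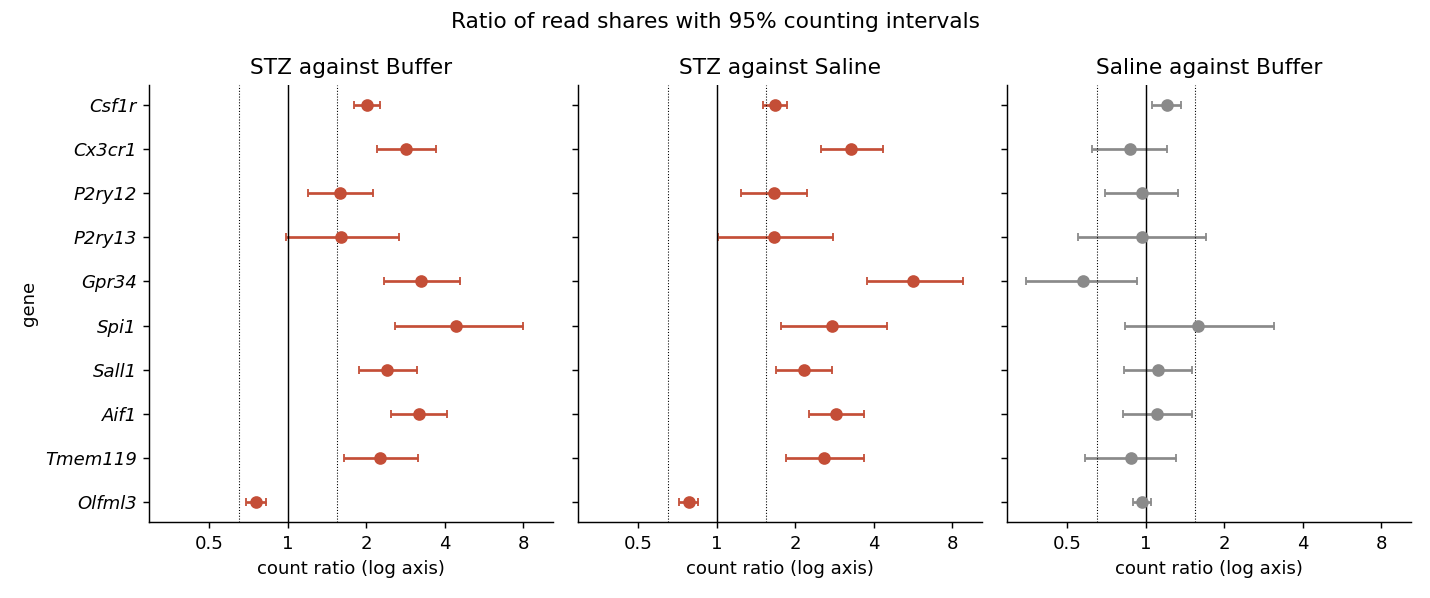
Count ratio of each gene (horizontal, log axis) for STZ to Buffer, STZ to Saline and Saline to Buffer, with exact 95% counting intervals, a solid line at 1 and dotted lines at 0.65 and 1.54. In both STZ panels 9 genes lie to the right of 1 and Olfml3 to the left, and between the controls only the intervals of Csf1r and Gpr34 leave out 1.

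Olfml3 carried much of the summed signal. The 10 genes together had 2169, 2207 and 3090 reads in the Buffer, Saline and STZ libraries, of which Olfml3 held 56.8%, 54.1% and 30.2%. The summed share was 98.6 CPM in Buffer (94.5 to 103), 100.4 for Saline and 140.3 for STZ, a ratio of 1.42 in STZ against Buffer (1.35 to 1.50). Without Olfml3 the reads were 936, 1013 and 2158, and the ratio became 2.30 against Buffer (2.13 to 2.49) and 2.13 against Saline (1.97 to 2.29). Saline against Buffer was then 1.08 (0.990 to 1.18).

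The order of the genes by FPKM kept the same 5 genes on top in all 3 libraries and varied below them. In Buffer it was Olfml3, Aif1, Csf1r, Cx3cr1, P2ry12, Tmem119, Gpr34, then Sall1 and P2ry13 at the same 0.81, and Spi1. In Buffer the counting intervals of the neighbors Cx3cr1 and P2ry12 overlapped, as did those of each neighboring pair from Tmem119 down. In Saline the first 6 were in the same order, followed by Spi1, Sall1, Gpr34 and P2ry13, and the same neighboring positions overlapped. In STZ the order was Aif1, Olfml3, Csf1r, Cx3cr1, P2ry12, Gpr34, Spi1, Tmem119, Sall1 and P2ry13. The neighbors Aif1 and Olfml3 overlapped there, as did Csf1r and Cx3cr1, and each neighboring pair from P2ry12 through Gpr34 and Spi1 to Tmem119. Per length the 10 genes ranged from low to high. In Buffer, 26.3% of all genes had a lower FPKM than Spi1, 46.3% lower than Csf1r and 83.4% lower than Olfml3.

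By counting error alone, the 9 genes were not higher by 1 fixed proportion between these single libraries. To compare them free of the library total, each gene was set against the summed reads of the others without Olfml3, as a conditional odds ratio with its exact 95% interval. Against Buffer, Aif1 was high relative to the others, at 1.43 (1.10 to 1.87), as were Gpr34 at 1.44 (1.03 to 2.05) and Spi1 at 1.95 (1.13 to 3.54). P2ry12 was low relative to them, at 0.671 (0.498 to 0.908), and so was Csf1r, at 0.783 (0.670 to 0.917). The remaining 4, Cx3cr1, P2ry13, Sall1 and Tmem119, were within counting error of the others. Csf1r weighed heavily in these sums, holding 449 of the 850 Buffer reads that Aif1 was set against, and 905 of the 1885 in STZ. Against Saline, Aif1, Cx3cr1 and Gpr34 were above the others and Csf1r was below, while P2ry12 was at 0.762 (0.565 to 1.03). The controls also differed by this measure. In Saline against Buffer, Gpr34 was at 0.515 (0.309 to 0.844) and Csf1r at 1.24 (1.03 to 1.49). The intervals of the remaining 8 genes, Olfml3 among them, held 1 there. Set directly against P2ry12, Aif1 was at 1.99 (1.35 to 2.93), Cx3cr1 at 1.78 (1.20 to 2.64) and Gpr34 at 2.03 (1.31 to 3.19) in STZ against Buffer, and Csf1r at 1.27 (0.925 to 1.72) was not separated from it.

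**Figure D4:**
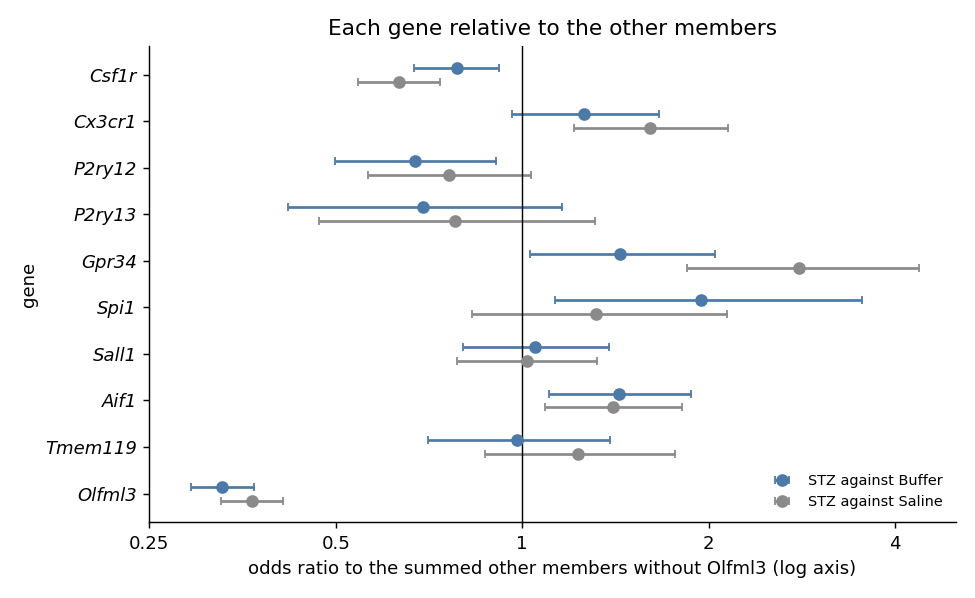
Odds ratio of each gene to the summed other genes without Olfml3 (horizontal, log axis), in STZ against Buffer and STZ against Saline, with exact 95% intervals and a line at 1. Olfml3 lies far to the left, Csf1r lies left of 1 in both comparisons, and Aif1 and Gpr34 lie right of 1 in both.

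Other genes that microglia share were described with lists chosen by name. Among the 14886 genes averaging 10 or more counts, 2.58% were higher by FPKM fold in STZ than in Buffer and 1.15% lower, with a median log2 fold of 0.03. In STZ against Saline 2.37% were higher and 1.95% lower, and in Saline against Buffer 1.01% were higher and 0.443% lower. Of 22 other microglia genes, 13 were higher than in Buffer and 0 lower, with a median of 0.72. Against Saline 12 were higher, with a median of 0.70. In the order Buffer, Saline, STZ, the complement gene C1qc had 149, 216 and 591 reads. Its FPKM fold was 3.48 to Buffer and 2.61 to Saline. The lipid receptor gene Trem2 had 28, 41 and 116 reads and folds of 2.90 to Buffer and 2.22 to Saline. Of the 22 genes, 18 had a fold above 1 to Buffer. Adgrg1 and Sparc, named after their values were seen, were lower in STZ by reads. Adgrg1 had 1086, 1128 and 884 reads, at 0.813 to Buffer (0.743 to 0.889). Sparc had 3034, 3281 and 2772 reads, at 0.912 to Buffer (0.866 to 0.961). Of 20 pan-myeloid genes, 13 were higher than in Buffer and 0 lower, with a median of 0.91. Against Saline 11 were higher, with a median of 0.67. Tyrobp, the adaptor that signals for Trem2, had 36, 63 and 180 reads and folds of 4.34 to Buffer and 2.63 to Saline. Lcp1, an actin-bundling protein of leukocytes, had 156, 164 and 592 reads and folds of 2.96 to Buffer and 2.82 to Saline. The controls also differed in these lists. In Saline against Buffer, 18 of the 20 pan-myeloid and 16 of the 22 other microglia genes had a fold above 1. Their medians there were 0.19 and 0.12, beside 0.02 over the genes averaging 10 or more counts. Tyrobp was at 1.65 there, past the threshold, C1qc at 1.33 and Lcp1 at 1.05.

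Phagocytic and activation genes included large single folds. Of 17 such genes, 9 were higher than in Buffer and 0 lower, with a median of 0.63, and 9 were higher than in Saline. Gpnmb, a lysosomal membrane glycoprotein, had 106, 285 and 1825 reads and folds of 12.3 to Buffer and 5.64 to Saline. Lgals3, which encodes galectin-3, had 8, 13 and 122 reads and a fold of 5.77. Gpnmb is also made by pigment cells, and Apoe, with 961, 1449 and 3305 reads and a fold of 3.38, is also made by glia. Gpnmb was also 2.18-fold higher in Saline than in Buffer, and Apoe 1.50-fold. Of the 17 genes, 16 had a fold above 1 to Buffer and 14 to Saline. Cd9, Spp1 and Lpl were named after their values were seen. Cd9 had 1742, 1747 and 1557 reads, a count ratio of 0.892 to Buffer (0.833 to 0.956). Spp1, with 203, 102 and 217 reads, had folds of 1.05 to Buffer and 1.88 to Saline. Lpl, with 70, 99 and 75 reads, had folds of 1.04 and 0.851.

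The ligands and signaling partners of the receptors gave no gene past the threshold by FPKM fold with its pseudocount of 1. Of 18 that had enough reads, 0 were higher and 0 lower than in Buffer or in Saline, with medians of 0.03 and 0.06. Csf1 had 244, 344 and 381 reads, with folds of 1.42 to Buffer and 1.05 to Saline. Il34, the other Csf1r ligand, had 9, 9 and 8 reads and fell below the minimum. Cx3cl1 had 62, 92 and 85 reads and a fold of 1.15 against Buffer. Entpd1, the ectonucleotidase CD39 that breaks down ATP and ADP, had 69, 61 and 125 reads and a fold of 1.38. By reads some of these genes were past 1.54 or 0.65, since the pseudocount damps low FPKM. Entpd1 had a count ratio of 1.81 to Buffer (1.34 to 2.46) and 2.04 to Saline (1.49 to 2.82). Csf1 was at 1.56 to Buffer (1.32 to 1.84) but at 1.10 to Saline (0.952 to 1.28). Nrros, a partner of latent TGF-beta in microglia, had 27, 46 and 53 reads and was at 1.96 to Buffer (1.21 to 3.24) and 1.15 to Saline (0.760 to 1.74). Lrrc32, named after its values were seen, had 20, 10 and 3 reads, at 0.150 to Buffer (0.0285 to 0.505). To Saline it was at 0.299 (0.0529 to 1.16), within counting error. Among 13 myeloid transcription factors, 3 were higher than in Buffer and 0 lower, namely Irf8 with 87, 101 and 233 reads and a fold of 2.01, Irf5 at 1.78, and Cebpa at 1.54375, barely past the threshold. Only Irf8 of these also passed against Saline by FPKM fold. By reads, Irf5 was at 2.23 to Saline (1.43 to 3.55) and Cebpa at 2.07 (1.39 to 3.14). Ikzf1, with 14, 24 and 42 reads, was at 2.99 to Buffer (1.60 to 5.94) and 1.75 to Saline (1.03 to 3.01). Of the 13, 13 had an FPKM fold above 1 to Buffer and 11 to Saline.

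**Figure D5:**
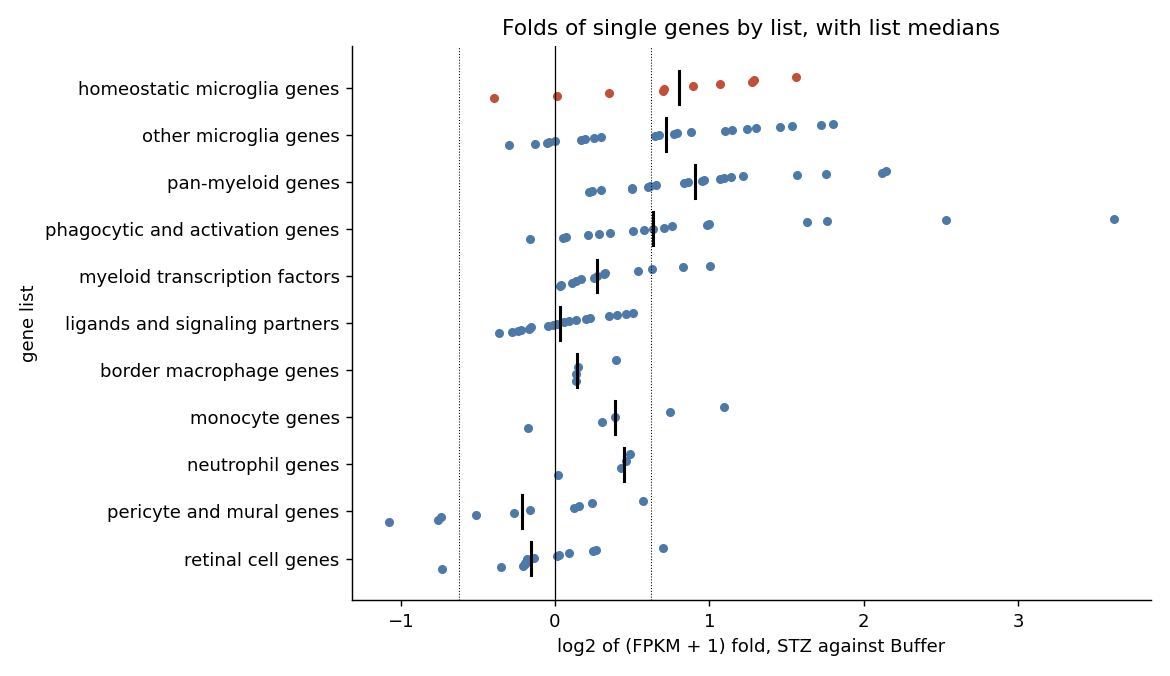
Log2 of the (FPKM + 1) fold in STZ against Buffer for each listed gene averaging 10 or more counts, by gene list, with a black bar at each list's median and dotted lines at the thresholds of 0.65 and 1.54. The medians of the homeostatic microglia genes (0.80), other microglia genes (0.72) and pan-myeloid genes (0.91) lie to the right of 0, with 9 of 10, 18 of 22 and 20 of 20 single genes there, and that of the ligands and signaling partners (0.03) lies near 0.

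Markers of other blood and border cells were few in reads but not the same in the 3 libraries. The 8 border macrophage genes in the table had 81 reads in Buffer, 248 in Saline and 173 in STZ. Of the 4 with enough reads, 0 were higher in STZ than in Buffer by FPKM fold, a rule that genes of such low FPKM hardly pass. With a pseudocount of 0.1, 3 of the 4 were higher. Mrc1, the mannose receptor of these cells, had 4, 43 and 41 reads, a count ratio of 10.2 to Buffer (3.71 to 39.3) and 0.951 to Saline (0.605 to 1.49). Cd163, their scavenger receptor, had 0, 14 and 1, so this list was lowest in Buffer and highest in Saline. The 8 monocyte genes had 325, 402 and 590 reads. By FPKM fold, 2 of the 5 with enough reads were higher in STZ than in Buffer. These were Itgal with 41, 61 and 195 reads and Cd14 with 12, 31 and 39. Against Saline 1 of the 5 was higher, Itgal, at a fold of 1.86. Cd14 had a count ratio of 1.26 to Saline (0.763 to 2.08), and Saline was at 2.59 of Buffer for this gene (1.29 to 5.53). The others with enough reads were Nr4a1, with 109, 107 and 178 reads, Plac8, with 44, 60 and 57, and Itga4, with 114, 135 and 105. Itga4, named after its values were seen, had FPKM folds of 0.885 to Buffer and 0.801 to Saline. The 10 neutrophil genes had 176, 241 and 283 reads, with S100a8 at 0, 2 and 3 and S100a9 at 0, 5 and 4. The 6 lymphocyte genes had 22, 33 and 42 reads in all. Mast cell genes other than Kit, which retinal cells also express, had at most 4 reads each. The part of border macrophages or monocytes in the higher myeloid reads was not tested.

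The genes whose profile over the 3 libraries was nearest to that of the 10 genes were taken by Euclidean distance on centered log2 CPM, out of 12807 candidates averaging 50 or more counts. With 3 libraries this likeness rests on 3 points. For the summed 10 genes the nearest were Kcnj6, Ntrk3, Myrip, Lgals1 and Sprn, at distances of 0.0036 to 0.0091. Without Olfml3, a choice made after the data were seen, the nearest were Lgmn, with 975, 1050 and 2326 reads, Coro1a, with 307, 328 and 678 reads, Mest, Nlrp3 and A2m, at 0.043 to 0.079. Nearest to Olfml3 alone, chosen likewise, were Siva1, Eml5, Pde5a, Mcm7 and Maz, and Mcm7, a replication licensing factor, had 5839, 5688 and 4452 reads.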

How the data were processed

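Total RNA of dissected P4 retinas was sequenced from TruSeq libraries on an Illumina instrument, 1 library per condition. Per the study's methods the authors checked reads with FastQC, trimmed them, aligned them to rat with TopHat2 (up to 2 mismatches) and discarded reads that hit several places. The submitters' processing notes name the build rn6, and the annotation is not given in the sources used here. The authors deposited FPKM, TPM and estimated counts per gene. The deposited TPM sum to 1000000 per library within rounding. The series table and the tables per library were compared, and no value differed between them (largest difference 0).

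The estimated counts were rounded to whole numbers before library totals (21977846 to 22031241), count ratios and intervals were computed. An FPKM fold is (FPKM + 1)/(FPKM + 1), with thresholds 1.54 and 0.65. Intervals are exact at the 95% level and cover counting error only. Medians and counts of the 13 gene lists used genes averaging 10 or more counts. The named genes were the 10 members, genes overlapping them, up to 4 members per list with the largest change, and the 5 nearest profiles. The ligands Csf1, Il34 and Cx3cl1 and the paralogs Sall3 and Spib were also named by rule. The rule also allowed listed genes at 0 in all libraries, and no listed gene was. Pax6, Crx, the other P2Y receptors, the profiles nearest to single members, Myh11, Lrrc32, Adgrg1 and Sparc were named after their values were seen. So were Cd163, S100a8, S100a9, Itga4, Cd9, Spp1 and Lpl. The 10 members and all lists were chosen with earlier results of these data known. All 10 member identifiers matched RefSeq's table for GRCr8, used for names and overlaps, and 17120 of 18425 table identifiers did. The alternatives were another pseudocount (0.1), thresholds of 2 and 0.5, TPM or CPM in place of FPKM, TMM factors of edgeR 4.0.16 (0.985 for Buffer, 1.00 for Saline, 1.01 for STZ), median-of-ratios factors of DESeq2 1.42.0, the mean of both controls, and minimum counts. No count model was fitted, since there are no replicates. Python 3.11.15, scipy 1.17.1 and R 4.3.3 were used, and the calculations were tested on simulated data.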

Additional observations from a re-analysis of the deposited data

How the results depend on the processing

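No library could be left out, and no paired analysis was possible because each condition has 1 library. Under TMM or median-of-ratios scaling all 60 count ratios of the 10 genes stayed within their counting intervals, but 6 genes in place of 7 were past the FPKM fold threshold against Saline, since Sall1 was then at 1.53. Under TMM scaling the other microglia genes higher than in Buffer numbered 12 in place of 13, the transcription factors 2 in place of 3 and the activation genes 8 in place of 9. With thresholds of 2 and 0.5, 4 of the 10 genes were higher in STZ than in Buffer and 3 than in Saline, in place of 7. By the counting interval 1 gene, Olfml3, was lower in STZ against each control, and between the controls 1 gene was higher and 1 lower in Saline. The count ratio with no pseudocount, an alternative chosen after the data were seen, also gave 1 higher and 1 lower between the controls, and 9 higher in STZ against each control. A pseudocount of 0.1 gave 1 higher gene between the controls and raised the median log2 fold to 1.09 against Buffer and 1.16 against Saline. Without Olfml3 the summed ratios became 2.30 for STZ over Buffer, 2.13 for STZ over Saline and 1.08 for Saline over Buffer. Taking Olfml3 out of the genes of comparison turned the odds ratio of Csf1r from 1.59 to 0.783 against Buffer and from 1.28 to 0.633 against Saline, and that of Tmem119 from 1.62 to 0.983 against Buffer, since Olfml3 held 1233 of the 1720 reads that Csf1r was set against in Buffer, and 1233 of the 2113 for Tmem119, and was lower in STZ.

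With a pseudocount of 0.1 the ligands and partners had 3 genes higher and 1 lower than in Buffer and 1 higher than in Saline, the myeloid transcription factors 4 higher than in Saline, the border macrophage genes 3 higher than in Buffer, the neutrophil genes 2 higher than in Buffer, and 2 higher and 1 lower than in Saline, and the pericyte genes 1 higher and 6 lower against each control. With a mean of at least 50 counts the transcription factors and the monocyte genes each had 1 gene higher than in Buffer, the pericyte genes 1 lower than in Buffer and 0 lower than in Saline, the border macrophage genes 0 lower than in Saline and the neutrophil genes 0 higher than in Saline. The causes of these shifts in list counts were not tested. With 28 reads of P2ry13 and 17 of Spi1 in Buffer, depth limits what their ratios can show.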

Other observations

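The other P2Y receptor genes were looked at after the values of P2ry12 and P2ry13 were seen. P2ry6, a UDP receptor that microglia use in phagocytosis, had 17 reads in Buffer, 27 in Saline and 50 in STZ, so STZ was at 2.94 of the Buffer share (1.66 to 5.43, 95% counting interval), with an FPKM fold of 1.55 against Buffer and 1.40 against Saline. P2ry4, a receptor for UTP and the most abundant of the family here, had 862, 962 and 784 reads and a ratio of 0.908 (0.823 to 1.00). P2ry1 had 40, 54 and 35 reads, at 0.873 (0.539 to 1.41), and P2ry2 had 23, 31 and 21. P2ry14 had 7, 11 and 7 reads and P2ry10 had 0, 3 and 1, too few to show a difference at this depth.

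Single genes of the set also had near profiles. Nearest to Spi1 over the 3 libraries were Tcirg1, Trem2, C1qc, Tyrobp and Fcer1g, at distances of 0.068 to 0.143 on the log2 scale, and nearest to Gpr34 was C3ar1, the receptor for complement C3a, with 31 reads in Buffer, 22 in Saline and 112 in STZ, at 0.221. Nearest to Csf1r was Csf3r, a granulocyte growth factor receptor gene, with 36, 43 and 74 reads, at 0.028. Crygn, a lens crystallin gene with 53, 51 and 85 reads, was nearest to both P2ry12 (0.0087) and P2ry13 (0.0025), and Dnajb13, with 58, 51 and 132 reads, was nearest to Tmem119 (0.0052). The nearest to Cx3cr1 was Wbp11l1, with 238, 227 and 752 reads (0.120), to Aif1 RGD1311756, with 63, 68 and 195 reads (0.029), and to Sall1 A2m, with 1257, 1415 and 3130 reads (0.034). These were taken after the data were seen and rest on 3 libraries.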
